A study of Mus musculus with 8 samples.

Results

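Mylk encodes myosin light chain kinase, and its H3K27me3 was described here from the regions that a comparison of mouse 3T3 fibroblasts listed on and around the gene. H3K27me3 is a histone mark that Polycomb repressive complex 2 writes. The authors' deposited table lists 265968 regions, and those overlapping the Mylk gene span (gene ID 107589, chromosome 16, 34745199 to 35002436, GRCm38, plus strand) or the 2 kb on either side of it were taken. There were 221 such regions, and 2395 other regions at 25 to 40 Mb of the chromosome served for comparison. The gene was chosen by the deposited values themselves, since its regions all differ in 1 direction between the library sets, so that difference is a description, without a test. With 3 libraries against 3, an exact two-sided permutation test could in any case not give a p below 0.1.

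The 3T3 cells, an immortalised line of mouse embryonic fibroblasts, carried either a control construct or an NNMT overexpression construct. NNMT methylates nicotinamide and uses S-adenosylmethionine, which is also the methyl donor of histone methyltransferases. Both kinds of cell grew with 10 µM methionine and 10% dialyzed serum for 48 h, and the labels give 3 biological replicates and 1 input per construct. Which promoter drove the construct, and whether the lines were clones or pools, was not given in the sources used here. No header heads the table's columns, and nothing in it ties either set of 3 values to a construct. The values are whole numbers of unstated scale, and the depth of the libraries is unknown. Here set 1 names the first 3 values of a row and set 2 the last 3, and no direction below is tied to NNMT.

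Myosin light chain kinase is activated by calcium and calmodulin and phosphorylates the regulatory light chain of myosin II, which starts contraction in smooth muscle and sets tension in the stress fibres of non-muscle cells. The gene is known to give a long non-muscle kinase, a short smooth muscle kinase and telokin, a small protein made from the end of the gene. H3K27me3 over a gene commonly goes with low transcription, but transcription was not measured in these libraries. Of all named genes 32.3% carried a listed region. As a check on the cell type, 0 of 12 fibroblast marker genes, among them Col1a1, Pdgfra and Vim, carried a listed region, and 5 of 9 smooth muscle markers did, 3 with sums higher in set 1 (Myh11, Des and Lmod1) and 2 with sums higher in set 2 (Actg2 and Myocd). Such a list holds only regions that differ between the sets, so the absence of a region shows neither the absence nor the presence of the mark.

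The sequence just before the annotated start of Mylk is shown because the ratio between the sets, described below, was lower before this start than after it. RefSeq places 1 start site of the gene in its promoter table, at 34784950, which lies 39.8 kb inside the gene span. The 250 bases before it (chr16:34784700-34784949, plus strand, RefSeq, GRCm38.p6) read 5′ to 3′, with capitals marking a match to TGANTCA, the core letters bound by AP-1 factors:
Mylk: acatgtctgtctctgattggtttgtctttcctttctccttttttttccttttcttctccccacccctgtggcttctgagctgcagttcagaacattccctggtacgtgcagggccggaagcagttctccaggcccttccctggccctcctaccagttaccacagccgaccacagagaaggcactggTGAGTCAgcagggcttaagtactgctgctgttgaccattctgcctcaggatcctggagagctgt

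This stretch held 3 CpG dinucleotides and 53.6% G and C, against medians of 6 and 52.4% over 32817 RefSeq promoters of the same length, of which 37.8% had as few or fewer CpG. The TGANTCA match began 64 bases before the start site (position -64), and 6.75% of the promoters held one. On both strands, TATAAA (in 12.4% of promoters), GGGCGG (32.7%) and a CArG box, the motif of serum response factor (1.47%), had no match in it. No listed region overlapped these 250 bases. The nearest regions ended 1.6 kb before the start site and began 1.6 kb after it, so that 3.2 kb around the start (34783351 to 34786550) carried no listed region.

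All 221 regions of Mylk were higher in set 1, with 0 the other way, against 59.5% of all listed regions that were higher in set 1. In 215 of the 221, all 3 values of set 1 lay above all 3 of set 2, which is called separated below (40.5% over all listed regions). A log2 ratio of at least 1, from summed values with a pseudocount of 1, was reached by 219 (22.3% over all listed regions). These shares use the contrast on which the gene was chosen, and nothing is read from them. Summed over the 221 regions, the libraries of set 1 had values of 10769, 10732 and 10122, and those of set 2 had 1096, 1022 and 1285. The sets did not overlap, and within a set the libraries lay close to each other, with the third library of set 2 the highest of its set. The ratio of the sums was 9.29 (7.88 to 10.5 over the 9 library pairs across sets), or 3.22 on the log2 scale. All listed regions together stood at 1.14-fold (0.19 on the log2 scale), and with the 6 libraries rescaled to equal sums Mylk stood at 3.02.

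The table lists regions only above a floor, which bears on every level per kb. The 6 values of a 50 bp region summed to at least 31 in all 15565 such regions of the table, and to 31 to 34 in those of Mylk. A listed region low in one set is therefore high in the other, whichever set that is. Per kb of listed region and library, the deposited value in Mylk averaged 216 in set 1 (207 to 220 across its libraries) and 23.2 in set 2 (20.9 to 26.3). Over all listed regions the same averages were 200 in set 1 (193 to 203) and 175 in set 2 (172 to 179), and over the other regions at 25 to 40 Mb they were 181 and 176. With that floor, and with Mylk chosen on its ratio, these levels restate the ratio and do not show which set departs from the usual level. Many set 2 values were 0. They were 0 in 69, 91 and 77 of the 221 regions in the libraries of set 2 as listed, and in 23 regions in all 3 libraries, which is 10.4% of the Mylk regions against 0.127% of all listed regions. Set 2 is the low set of the contrast on which Mylk was chosen. The shares are also not matched for length, with a median of 100 bp at Mylk and 450 bp over all listed regions. Nothing is read from the difference in shares. No set 1 library had a 0 in any of the 221 regions, and its values ran from 4 to 526. The highest single value of set 2 was 110. The inputs were not analysed here, so fewer copies of the locus and less of the mark in set 2 cannot be told apart.

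**Figure D1:**
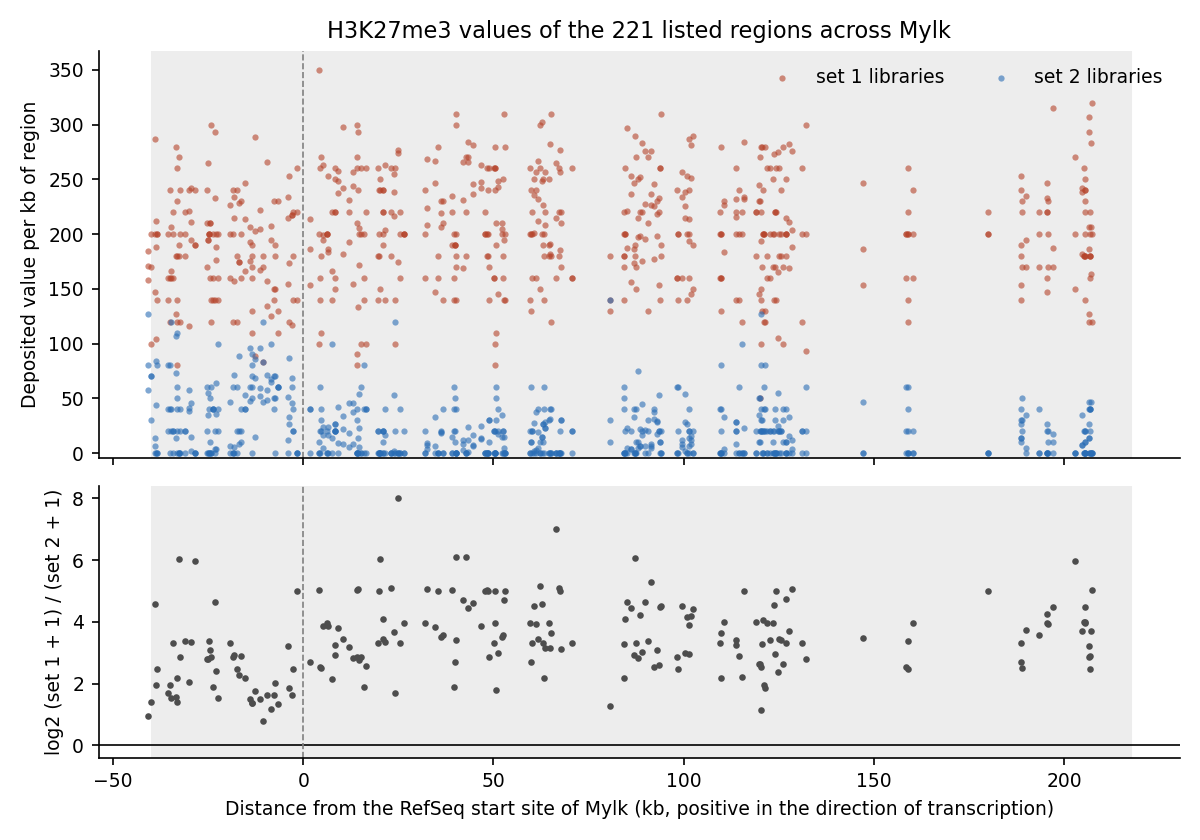
Upper panel: deposited value per kb of region for each of the 221 listed regions against distance from the RefSeq start site (dashed line), with red points for the 3 libraries of set 1 and blue points for the 3 of set 2. Lower panel: log2 ratio of the summed values with a pseudocount of 1, where shading in both panels marks the gene span; all points lie above 0, with a median of 2.17 before the start site and 3.56 after it.

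A small number of long regions carried much of the summed value. The 26 regions of 500 bp or longer held 49.3% of the summed set 1 values and all 26 were separated, whereas the 76 regions of 50 bp, the smallest length in the table's 50 bp grid, held 7.01%. The ratio was 10.5 (8.17 to 12.3 over pairs) for the long regions and 11.9 (9.94 to 14.7) for those of 50 bp. Long and short regions thus differed in the same direction and by ratios whose ranges over library pairs overlapped. Regions are listed only where the sets differ, and those of 50 bp had sums close to the floor. Their ratio is therefore partly set by the listing and is no check on that of the long regions. The short ones had single set 1 values of only 4 to 16, so each of them alone says little.

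The longest region was also that with the largest summed value, 2000 bp at chr16:34830551-34832550, 46.6 kb after the start site. The authors' deposited table gives it 526, 495 and 484 in set 1 against 26, 49 and 27 in set 2, a ratio of 14.8 (9.88 to 20.2 over pairs). The region just before it (chr16:34828901-34830250) had 380, 320 and 332 in set 1 against 10, 9 and 22 in set 2, a ratio of 25.2 (14.5 to 42.2). In both regions every set 1 library lay far above every set 2 library.

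A region of 1150 bp lay 91.4 kb after the start site (chr16:34875751-34876900), and the authors' deposited table gives it 272, 261 and 317 in set 1 against 5, 7 and 9 in set 2, a ratio of 40.5 (29.0 to 63.4 over pairs). Among the 5 regions with the largest summed values it had the lowest set 2 values. A region of 1650 bp 13.1 kb after the start site (chr16:34797201-34798850) was less even, with 423, 402 and 255 in set 1 against 75, 13 and 62 in set 2, a ratio of 7.2 whose pairs ran from 3.4 to 32.5. Its sets did not overlap, but the second library of set 2 was far below the other two.

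Only 1 of these 5 regions lay before the start site. It spanned 1150 bp at chr16:34772901-34774050, 11.5 kb upstream, and the authors' deposited table gives it 235, 255 and 192 in set 1 against 60, 68 and 110 in set 2, a ratio of 2.87 (1.75 to 4.25 over pairs). Its summed set 2 value was the highest of the 221 regions, and set 1 was again higher in every pair. Of the 70 regions with a mean of at least 20 over the 6 libraries, the largest log2 ratio was that of a 350 bp region 24.8 kb after the start site (chr16:34809551-34809900). It had 96, 61 and 97 in set 1 and was listed at 0 in all 3 libraries of set 2, so no fold is given.

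The regions nearest to the ends were short, and their values were small. The authors' deposited table gives the first region inside the span (chr16:34745901-34746050) 22, 30 and 43 in set 1 against 2, 1 and 0 in set 2. The last (chr16:34992301-34992350) had 10, 16 and 6 in set 1 and was listed at 0 in all of set 2. The last region ended 10.1 kb before the end of the span. In the 6 regions that were not separated, at least 1 value of set 2 reached the lowest of set 1. The largest of these 6, 10.5 kb upstream of the start site, had 54, 25 and 51 in set 1 against 14, 36 and 25 in set 2. Its log2 ratio of 0.79 was the lowest of all 221.

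The difference was smaller before the annotated start than after it. The 50 regions before the start site, which lie in the first 39.8 kb of the span and its flank, had sums of 1998, 2145 and 1816 in set 1 against 425, 480 and 594 in set 2. That is a ratio of 3.98 (3.06 to 5.05 over pairs). The 171 regions after it had 8771, 8587 and 8306 in set 1 against 671, 542 and 691 in set 2, a ratio of 13.5 (12.0 to 16.2 over pairs). The ranges of the ratio over library pairs did not overlap between the stretches, which differed by 1.76 on the log2 scale. This division was made after the values had been seen and was not tested.

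Per covered kb, the set 2 libraries stood at 40.7, 45.9 and 56.8 before the start site and at 17.5, 14.1 and 18.0 after it, a factor of 2.33, 3.26 and 3.16. The libraries of set 1 went the other way, from 191, 205 and 174 before to 228, 223 and 216 after. The mean per library of set 1 plus that of set 2 was 238 before and 239 after. The floor of the listing is on another scale, since it holds for the sum of all 6 values (at least 620 per kb). With that floor keeping low regions out, the step cannot be given to either set. In steps of 20 kb the ratio was 6.02 (4.28 to 9.91 over pairs) from 40 to 20 kb upstream (position -40 to -20). It was 3.41 (2.51 to 4.37) in the last 20 kb before the start. After the start it was 9.63 (6.78 to 16.4) in the first 20 kb and 16.9 (11.5 to 26.7) in the next 20 kb. The ranges just before and just after the start did not overlap. However, the range from 40 to 20 kb upstream overlapped that of the first 20 kb after the start. The change in ratio can therefore not be placed at the start site itself. The ranges of the other adjacent steps given here overlapped, but such ranges do not compare a library with itself. Each set 2 library stood higher in the last 20 kb before the start (47.7, 52.3 and 65.0 per covered kb) than from 40 to 20 kb upstream (20.5, 32.5 and 44.5). Set 1 libraries stood at 192, 208 and 163 against 194, 203 and 190. This fall in the ratio towards the start was not tested, and no rise is read beyond the first 20 kb after it.

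Further along the gene the ratio stayed high. In windows of 50 kb from the start site it was 13.8 (11.9 to 16.5 over pairs) in the first, 13.9 (11.1 to 16.9) in the second, 11.8 (9.21 to 15.5) in the third and 14.5 (10.2 to 24.9) in the fourth. It was 14.2 (12.7 to 16.4) from 200 kb to the end. These ranges overlap, so no gradient can be read after the start site. The first 39.8 kb of the gene span, before that site, are not among these windows and had the lower ratio given above. The density of listed regions did change, from 53 regions in the first window and 51 in the second to 41 in the third and 14 in the fourth. The largest stretch without a listed region was 19.7 kb long (34945251 to 34964900), followed by stretches of 14.8 kb and 11.1 kb in the same part of the gene. E130310I04Rik, a long noncoding RNA gene inside Mylk (34943175 to 34958994), carried 4 of the Mylk regions, all of 50 bp, with summed values of 37, 44 and 34 in set 1 against 2, 1 and 8 in set 2. Exon and intron borders were not used here, so regions are placed by distance only.

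**Figure D2:**
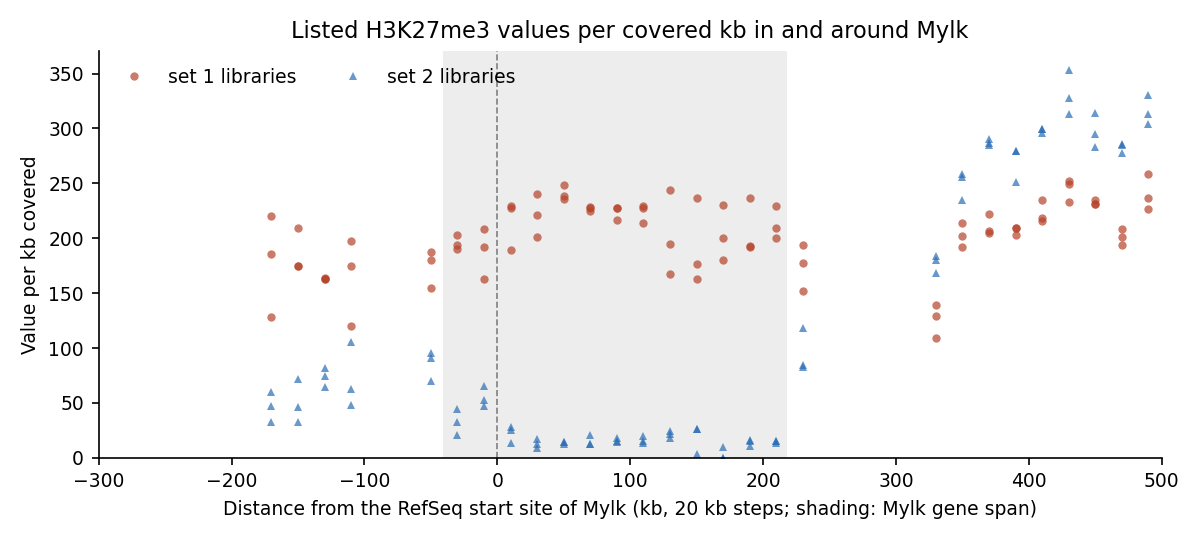
Deposited value per kb covered by listed regions in 20 kb steps around the RefSeq start site of Mylk (dashed line; shading marks the gene span), where circles are set 1 libraries and triangles are set 2 libraries, 3 of each. Steps without points hold no listed region; set 2 lies below set 1 left of and within the gene and above it from 320 kb on.

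The regions just outside the window showed how Mylk sits in its surroundings. The first region inside the 2 kb flank, 0.899 kb before the gene, has 71, 83 and 77 in set 1 against 57, 36 and 26 in set 2, as the authors' deposited table lists them. The nearest outside it, 2.8 kb before the gene, had 51, 51 and 36 in set 1 against 11, 15 and 18 in set 2. On the other side the next region came 9.77 kb after the gene, with 32, 24 and 19 in set 1 against 20, 1 and 1 in set 2, the only 1 of these 3 whose sets overlapped. All 3 were higher in set 1, so the 2 kb border itself divides regions of the same direction.

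Regions higher in set 1 followed each other without interruption from 33536851 to 35020250, a run of 1483 kb with 294 regions. Of these, 67 lay left of Mylk with a ratio of 2.28, the 221 of Mylk followed, and 6 lay right of it with a ratio of 1.84. The whole run stood at 4.95-fold. Of the 203 such runs with more than 100 regions in the genome, this one included, 0 had a higher ratio. That rank rests on the 221 Mylk regions, whose gene was chosen on this contrast, so nothing is read from it. The run ended at LOC105246106, a long noncoding RNA gene just beyond Mylk, which held those last 6 regions (446, 409 and 349 in set 1 against 194, 190 and 271 in set 2). After 101 kb without a listed region, the direction was opposite.

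Genes next to Mylk shared its pattern on the left only in part. Of the named genes within 500 kb, Ccdc14, which ends 20 kb before Mylk, Hacd2, which begins 20 kb after it, and Kalrn, which ends 172 kb before it, carried 0 listed regions. Ropn1, a sperm flagellar protein gene 66.6 kb before Mylk, carried 14, all higher in set 1, with sums of 541, 514 and 535 in set 1 against 273, 203 and 237 in set 2. Its ratio was 2.23 (1.88 to 2.67 over pairs), a range below that of Mylk. Adcy5, an adenylyl cyclase gene 152 kb after Mylk, was opposite, with 36 of its 39 regions higher in set 2. Its sums were 29896, 30234 and 29514 in set 1 against 39426, 41206 and 40771 in set 2, so set 2 was 1.35-fold higher (1.3 to 1.4 over pairs). Adcy5 differed from Mylk in the shape of its regions as well, since they covered 136 kb with a median length of 1650 bp, against 48.9 kb and 100 bp at Mylk. Sec22a held 2 regions higher in set 2 and Pdia5 held 1 higher in set 1.

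At 25 to 40 Mb as a whole, the other 2395 regions were divided, with 1103 higher in set 1 (46.1%) and 1292 higher in set 2. Their sums were 313900, 314439 and 298847 in set 1 against 297338, 306447 and 296325 in set 2, a ratio of 1.03 (0.975 to 1.06 over pairs). The libraries of the sets overlapped there, and rescaled to equal sums the other regions stood at 0.9-fold with 46.0% higher in set 1. The log2 ratio of Mylk exceeded that of these regions by 3.17, and by 3.07 when only regions at least 1 Mb away were taken. Left of Mylk 1027 of 1639 regions were higher in set 1 (62.7%, near the 59.5% of all listed regions). Their ratio was 1.32 (1.24 to 1.36 over pairs), or 1.15 with the libraries rescaled to equal sums. Right of Mylk 680 of 756 were higher in set 2, by 1.4-fold (1.35 to 1.46 over pairs). Rescaling left these higher in set 2, at 0.63 for set 1 over set 2.

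The bin of Mylk had the highest ratio of the window. Of the 60 bins of 250 kb, 45 held at least 10 regions, and 18 of these were higher in set 1, 26 in set 2 and the remaining bin equal. The bin from 34.75 to 35 Mb, which holds most of Mylk, stood at 9.66-fold, followed by the bins from 25.75 Mb (5.54-fold) and from 31.5 Mb (4.68-fold). Right of Mylk, all 16 bins with at least 10 regions were higher in set 2. Left of it, 17 of 28 were higher in set 1. The left side changed direction along its length, and the bins from 26.75 to 27.75 Mb, among others, were higher in set 2. The bin holding most of Mylk thus carried the largest ratio of the window, next to a right side higher in set 2. Since Mylk was chosen on this contrast, nothing is read from the rank of its bin.

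**Figure D3:**
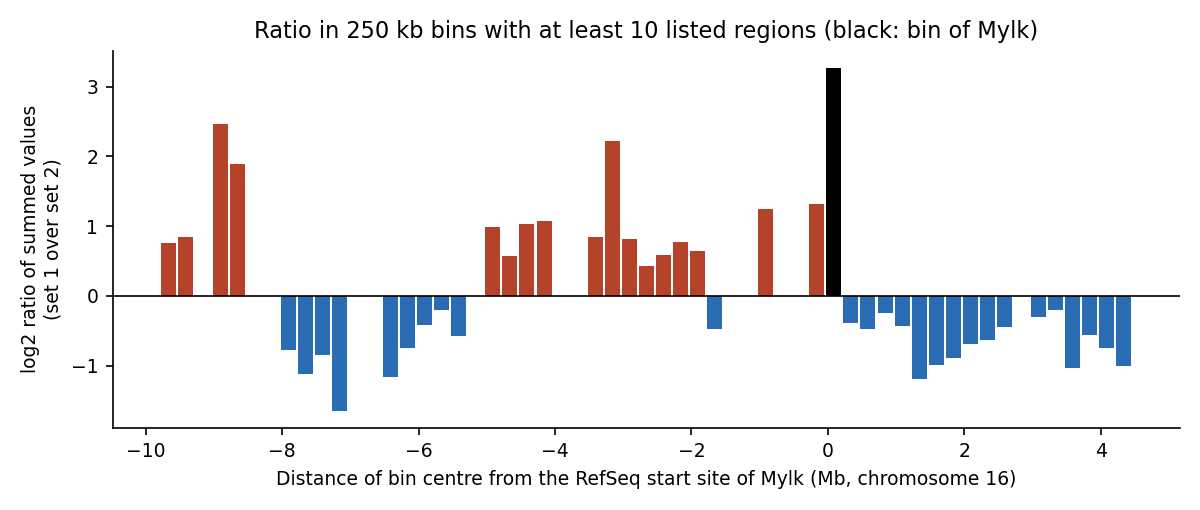
Log2 ratio of summed values, set 1 over set 2, in 250 kb bins of 25 to 40 Mb on chromosome 16 that hold at least 10 listed regions, against distance of the bin centre from the RefSeq start site of Mylk. Bars start at 0, with the bin holding most of Mylk in black (9.66-fold), bins higher in set 1 in red and bins higher in set 2 in blue; the bins right of Mylk are all below 0.

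The window held all or part of 28 named genes with at least 10 regions over their whole span. Of these, 10 had the higher sum in set 1 and 18 had it in set 2. The 18 include Lsamp, which begins inside the window, while all 109 of its regions lie beyond the window's end. Mylk, chosen on this contrast, came first, and P3h2, a collagen prolyl hydroxylase gene 8.64 Mb away, came next. All 67 regions of P3h2 were higher in set 1, with sums of 6164, 6427 and 6013 in set 1 against 1321, 956 and 1209 in set 2, a ratio of 5.34 (4.55 to 6.72 over pairs). The pair ranges of Mylk and P3h2 did not overlap. Muc13, a membrane mucin gene 0.925 Mb before Mylk within the same run, followed at 2.32-fold (2.11 to 2.61 over pairs), with all 22 of its regions higher in set 1. Mylk was therefore not alone in its direction.

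Across the genome, 2615 of 20493 named genes carried at least 10 listed regions, with a median log2 ratio of 0.30. By ratio 4 of them stood above Mylk, named here after their values were seen, namely Ptpn5 (14.0-fold), Galnt9 (13.9-fold), Pakap (9.45-fold) and S100a16 (9.32-fold). Of the 170 genes with at least 100 regions, 17 had all of them higher in set 1, and Mylk had the second highest ratio after Pakap. As a measure of likeness, each gene's 6 summed values were divided by their geometric mean, put on the log2 scale and compared by Euclidean distance over the 6 libraries, among 2610 genes with at least 10 regions that lay over 1 Mb from Mylk. The nearest was Pakap, a kinase-anchoring protein gene, at a distance of 0.085 against a median of 3.6. Its sums were 25035, 23789 and 23854 in set 1 against 2466, 2374 and 2853 in set 2 over 224 regions. As in Mylk, the third library of set 2 was the highest of its set. The distance uses these same 6 values, with the contrast on which Mylk was chosen, so this likeness is no separate support.

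S100a16, a calcium-binding protein gene with 14 regions, was next at a distance of 0.214 and a ratio of 9.32. Hsf2bp, a meiotic recombination gene with 41 regions, followed at 0.39 and 7.77-fold, Glra1, a glycine receptor subunit gene with 92 regions, at 0.571 and 6.99-fold, and Cdx1, a homeobox gene with 26 regions, at 0.678 and 7.0-fold. These 5 lie on other chromosomes and share with Mylk the 6 libraries and the way regions were listed. All of their regions were higher in set 1, a direction that the choice by likeness to Mylk favours.

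Among other genes of light chain phosphorylation and contraction, most carried no listed region, as did 13883 of all 20493 named genes. None reached the ratio of Mylk, but only 13 of the 6610 named genes with regions, of whatever number, exceeded it. With Mylk chosen on its ratio, nothing about the list is read from this. The list of 53 genes, which leaves Mylk itself out, held 13 with a separated region higher in set 1 (24.5%, against 24.8% of all named genes) and 6 with one higher in set 2 (11.3%, against 14.7%). Both shares were close to those of all genes. The 16 list members with regions had a median log2 ratio of 0.37, against 0.38 over the 6610 named genes with regions. In the list, 12 were higher in set 1 by their sums and 4 in set 2, that is 75% in set 1, near the 69.7% of all named genes with regions. The highest ratio among the 16, named after its values were seen, was that of Des, the muscle intermediate filament gene, with 868, 742 and 837 in set 1 against 185, 210 and 216 in set 2 over 7 regions (log2 ratio 2.00).

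Of the other kinases of the family, Mylk2, the skeletal muscle form, carried 0 regions. Mylk4 had sums of 8978, 9064 and 8698 in set 1 against 7215, 7336 and 7152 in set 2, a ratio of 1.23 (1.19 to 1.27 over pairs), with 33 of 44 regions higher in set 1. Mylk3, the cardiac form, was looked at for its family membership after its values were seen, and had 2228, 2274 and 1916 in set 1 against 1103, 990 and 1038 in set 2, a log2 ratio of 1.04. All 24 of its regions were higher in set 1, yet its ratio lay well below that of Mylk. Dapk2, a related calmodulin-dependent kinase that can phosphorylate light chains, differed little, at 1.05-fold with 32 of 55 regions higher in set 1. Dapk1 held 1 region, with overlapping values (31, 23 and 0 in set 1 against 46, 26 and 32 in set 2). Upstream and opposing regulators, namely Rhoa, Rock1, Rock2 and the myosin phosphatase genes Ppp1cb and Ppp1r12a, carried 0 regions.

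The substrates and partners of the kinase were likewise mixed. Myh11, the smooth muscle myosin heavy chain gene, which also lies on chromosome 16, had 8905, 9125 and 8667 in set 1 against 7832, 8069 and 7589 in set 2, a ratio of 1.14 (1.07 to 1.2 over pairs). Myh14, a non-muscle heavy chain gene, stood at 1.44-fold (1.33 to 1.52 over pairs), with 38 of 41 regions higher in set 1. Myl2, a cardiac regulatory light chain gene, had 4445, 4299 and 4082 in set 1 against 4491, 4447 and 4485 in set 2, so that set 2 was 1.05-fold higher. Actg2, smooth muscle actin, stood higher in set 2 by 1.23-fold (1.08 to 1.42 over pairs). With the libraries rescaled to equal sums, Myh11 (log2 ratio -0.01) and Dapk2 (-0.12) turned to the set 2 side, while Mylk4 (0.11) and Myh14 (0.34) did not turn.

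Myocd, the coactivator of serum response factor that drives smooth muscle genes, went against Mylk. All 29 of its regions were higher in set 2, with 1666, 1804 and 1755 in set 2 and 915, 742 and 720 in set 1, and 22 of them were separated. Separation in this direction, with every set 2 value above every set 1 value, held for 24.7% of all listed regions. At Myocd, set 2 was 2.2-fold higher (1.82 to 2.51 over pairs). Genes of the smooth muscle programme therefore did not share 1 direction in these libraries.

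**Figure D4:**
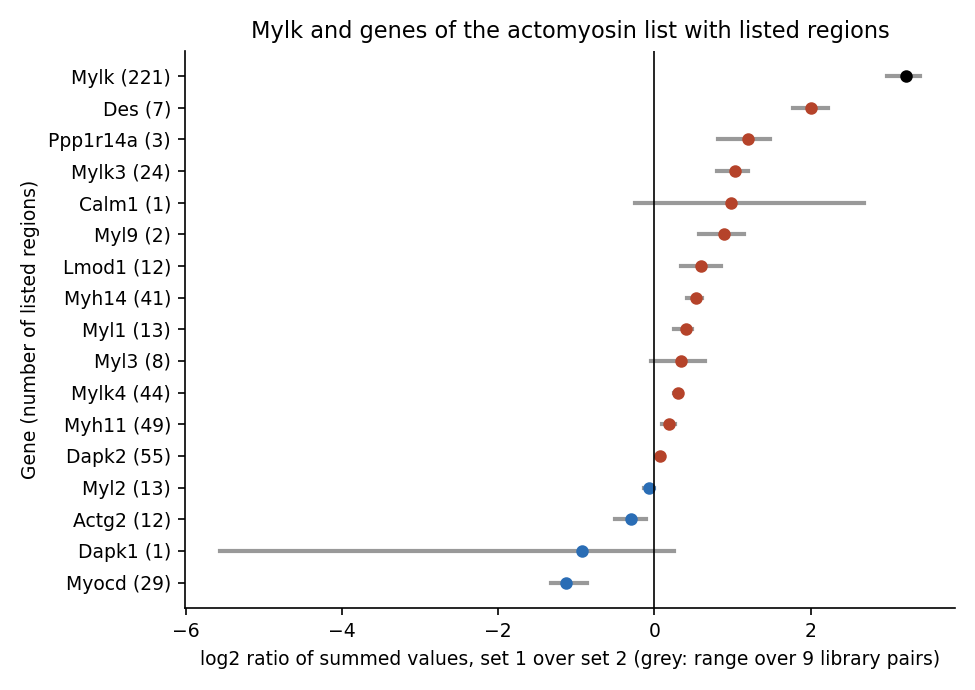
Log2 ratio of summed values, set 1 over set 2, for Mylk (black) and the 16 members of the actomyosin list that carry listed regions, with the number of regions in parentheses and grey lines for the range over the 9 library pairs. Mylk, chosen on this contrast, lies at 3.22, above all 16, and Myocd lies lowest at -1.14.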

How the data were processed

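H3K27me3 chromatin immunoprecipitation libraries of 3T3 cells were compared, 3 per construct, with 1 input each. Chromatin was fixed with 1% formaldehyde and cut with micrococcal nuclease, per the labels' protocols. The tools named are BWA 0.7.17, Trimmomatic 0.36 and CASAVA, with build GRCm38, per the submitters' processing notes. How regions were called and normalized was not given in the sources used here. Every row of the table the authors deposited holds 6 whole-number values of unstated scale, treated as signal, and a constant score that was not used. They may be rescaled, so no count model was fitted. Depth is unknown, and the authors' p was used only as a filter in 1 alternative. Samples could not be tied to the sets.

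Regions were joined to RefSeq gene spans (GRCm38.p6) extended by 2 kb, values summed, and ratios given with their range over the 9 library pairs (Python 3.11.15, pandas 2.3.3, numpy 2.4.6). The overlap and summing steps were tested on simulated data. Mylk, the lists and the rules were chosen with earlier results of these data known. Named by rule were the 5 Mylk regions with the largest sums, the longest, the one with the largest log2 ratio at a mean of at least 20 and the ones nearest to the ends, neighbours within 500 kb, up to 4 list genes per direction and the 5 genes most like Mylk. Other genes named were chosen after their values were seen. Alternatives covered the filter on p, the flank, scaling, a mean of at least 10, the pseudocount, medians of regions, a window at least 1 Mb away and each library left out.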

Additional observations from a re-analysis of the deposited data

How the results depend on the processing

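No paired analysis was possible because the deposited values carry no replicate numbers. Leaving out each library in turn left all 221 Mylk regions higher in set 1, with 0 the other way, gave a log2 ratio of the Mylk sums of 3.15 to 3.31 and an excess over the other regions at 25 to 40 Mb of 3.09 to 3.28, and gave a difference after minus before the start site of 1.68 to 1.91. Values that moved by more than the spread over library pairs were few. With a 10 kb flank the log2 ratio was 2.99 and the excess 2.95, with the libraries rescaled to equal sums the ratio was 3.02, and from medians of regions the excess was 3.73. With a mean of at least 10 required, 145 regions remained, all higher in set 1. Settings added after the data were seen gave 3.75 for the regions after the start site only, and a difference at the start site of 2.02 for regions of 500 bp or longer. Of 64 values for the 8 Mylk regions given singly, 4 moved, all with a pseudocount of 10. Among all 125 alternative values, 0 log2 values changed sign, and counts were only called the same or moved. Depth is unknown, which leaves the precision of single short regions unknown.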
